A study of Mus musculus with 11 samples.

Results

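The genes described here encode the extracellular and receptor layer of Wnt signalling with its best known intracellular parts. Members were matched by gene symbol and not filtered by a measured value, though earlier results of these data were known. The match took every Wnt, Fzd, Sfrp and Dkk gene with a number in its symbol, Dkkl1, Lrp5, Lrp6, Ror1, Ror2, Wif1, Axin1, Axin2, Nkd1, Dvl1, Dvl2, Ctnnb1, Lef1 and Tcf7l2. They came to 50 of the 12393 genes named on the array, read by 76 of 20380 probe sets that carry a single gene symbol. By role there were 19 Wnt ligands, 9 Frizzled receptors, 4 co-receptors or alternative receptors, 10 secreted antagonists, 6 intracellular transducers or feedback genes and 2 TCF/LEF factors. Tcf7 and Lgr4, also named by the rule, were not analysed here.

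The study measured messenger RNA on 11 Affymetrix arrays of mouse JB6 cells, a skin-derived line used to study growth without attachment. Parental JB6 cells of clone 41-5A, labelled as given basic fibroblast growth factor (bFGF), were sampled as an attached monolayer (3 arrays) and as soft agar colonies (3 arrays, 10 ng/ml bFGF). RT101, a tumour variant of JB6 that was left untreated, was sampled as monolayer (2 arrays) and as colonies (3 arrays), and colonies of both kinds were collected on day 7. Colonies were set against monolayers to look for expression changes that growth factor-driven, reversible colony growth and irreversible colony growth of tumour cells have in common. All samples were kept in the same serum-supplemented medium. No bFGF dose or exposure time was given for the bFGF-JB6 monolayers, and no group held JB6 cells without bFGF. A difference between RT101 and bFGF-JB6 therefore joins the cell line with the growth factor, and these cannot be told apart. The colony change of bFGF-JB6 may likewise join growth state with bFGF dose or exposure time, as may any difference between the colony changes. These also cannot be told apart. Each kind of cell was 1 line, and nothing in the labels ties replicates to separate cultures, so p-values measure only the spread among these samples, which may be technical.

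Wnt proteins are secreted, lipid-carrying ligands that bind Frizzled receptors at the surface of neighbouring cells. With Lrp5 or Lrp6 as co-receptor they act through Dishevelled (Dvl) to spare beta-catenin, the product of Ctnnb1, from the destruction complex that Axin scaffolds, and beta-catenin then works with TCF/LEF factors in the nucleus. Ligands such as Wnt5a also signal without beta-catenin, through the receptor tyrosine kinases Ror1 and Ror2 and the planar polarity machinery. Sfrp proteins and Wif1 bind the ligands outside the cell, and some Dkk proteins, such as Dkk1, bind Lrp5 and Lrp6. The group of secreted antagonists was formed by symbol, so it includes Dkk3 and Dkkl1 as well. In skin the pathway is known for its part in hair follicle formation and growth.

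Values are RMA signals on the log2 scale, so a difference of 1 is 2-fold. Array medians ran from 5.82 to 5.95 and lower quartiles from 3.78 to 3.91, and arrays of 1 group correlated at 0.989 to 0.998. On 2 arrays, bFGF-JB6 monolayer replicate 1 and bFGF-JB6 colonies replicate 3, the Gapdh control signal of the 3' end stood 0.19 and 0.35 above that of the 5' end, against -0.08 to -0.01 elsewhere. Although JB6 came from epidermis, all 9 keratinocyte and epithelial markers had group means between 2.39 and 5.43, Cdh1 near 2.39 in monolayers of bFGF-JB6, while the 9 fibroblast and mesenchymal markers ran from 3.43 (Thy1) to 13.16 (Vim). Of these 9, 5 rose and 2 fell in bFGF-JB6 colonies, and 6 rose in RT101 colonies, where their median went from 9.35 to 10.55. Between monolayers 5 of them were lower in RT101 and 0 higher, Dcn at 4.51 against 10.63, and between colonies 3 were higher and 2 lower. In the order given, 77.8%, 66.7%, 55.6% and 55.6% of the 9 passed the threshold given below. Of all genes 29.4%, 32.4%, 44.4% and 43.3% did. The 8 macrophage markers had group means from 2.34 to 8.69, and the leukocyte gene Ptprc did not exceed 2.53. Of these 8, 3 rose in bFGF-JB6 colonies, Cd68 from 6.45 to 8.31, Csf1r from 5.06 to 5.98 and Lyz2 from 4.34 to 4.69, and 2 rose in RT101 colonies. Between colonies 1 was higher and 4 were lower in RT101, where Cd68 was at 3.54. In these 3 comparisons 37.5%, 25.0% and 62.5% of the 8 passed, beside 29.4%, 32.4% and 43.3% of all genes. The part of either list in the Wnt gene results was not tested.

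Signals of the Wnt genes were mostly low. The median member had a mean signal of 4.30, against 6.30 for all genes, and 8 of 50 members reached the median gene: Wnt5a, Fzd2, Fzd7, Lrp6, Axin1, Ctnnb1, Dvl1 and Dvl2. In 16 of 50 members (32.0%, against 20.2% of all genes) no group mean exceeded 3.91, the highest lower quartile of an array, and 8 of these were ligands and 5 antagonists. Such signals lie close to the floor of RMA values, where folds are compressed. Signals of different probe sets also depend on the probes, so they do not rank the genes by transcript.

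Genes were called at an adjusted p of 0.05 (limma, Benjamini-Hochberg over all 12393 genes). In bFGF-JB6 colonies against monolayer 12 of 50 members rose and 0 fell, with Lrp5, Fzd2, Fzd8, Sfrp1 and Lrp6 at the largest differences. All genes gave 29.4% called, 14.1% higher and 15.3% lower, and members gave 24.0%. In RT101 colonies 4 members rose (Fzd2, Tcf7l2, Sfrp1 and Ctnnb1) and 3 fell (Fzd7, Fzd3 and Ror2). That was 14.0%, against 32.4% of all genes, where 17.0% were higher and 15.4% lower. The colony changes of the 2 lines differed for 4 members, Fzd8, Fzd3, Fzd7 and Wnt1, all lower in RT101, 8.0% of members against 27.7% of all genes (15.0% higher and 12.7% lower). Between monolayers 6 members were higher and 5 lower in RT101 than in bFGF-JB6, 22.0% against 44.4% of all genes (23.2% higher and 21.2% lower). Between colonies 5 were higher and 10 lower, 30.0% against 43.3% (22.7% higher and 20.7% lower). Ctnnb1, Fzd2 and Sfrp1 rose in colonies of both lines. With every probe set tested on its own, 19 of the 76 sets of the members were called in bFGF-JB6 colonies (17 higher, 2 lower) and 16 in RT101 colonies (10 higher, 6 lower), where 26.9% and 29.6% of all probe sets were. For the difference between the changes 13 were called, between monolayers 19 and between colonies 22, beside 24.1%, 41.4% and 40.6% of all probe sets. In bulk RNA, fewer cells that express a gene and less RNA of it per cell cannot be told apart.

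The member median was 0.11 in bFGF-JB6 colonies and 0.00 in RT101 colonies, beside 0.03 and -0.01 over all genes. Between lines it was 0.08 in monolayers and -0.05 in colonies, beside 0.05 and 0.00. By the brightest probe sets few differences reached 2-fold: 1 member (Lrp5) in bFGF-JB6 colonies and 0 in RT101 colonies, where 3.49% and 5.79% of all genes did, 1 (Ror2) between monolayers and 4 (Wnt5a, Ror2, Lrp5 and Fzd8) between colonies, where 12.2% and 10.1% did. Other sets, called singly, passed 2-fold in RT101 colonies for Tcf7l2 (up to 1.44), Fzd2 (1.13) and Fzd3 (-1.15). Such sets were also found for Fzd3 (1.13) and Ctnnb1 (-1.24) between monolayers. Between colonies they were found for Tcf7l2 (up to 2.51) and Ctnnb1 (-1.27). Among the 8 members with signals at or above the median gene, 4 were called in bFGF-JB6 colonies, 3 in RT101 colonies, 1 for the difference between these changes, 3 between monolayers and 7 between colonies. Genes of that level were called in 44.7%, 51.9%, 42.4%, 66.5% and 64.5% of cases. Counts of alternatives here and below leave the 2-fold minimum aside, and the filter at the median level for members below it. On that basis 28 of 49 calls of members were kept in every alternative, 4 of 12 in bFGF-JB6 colonies and 11 of 15 between colonies. Leaving out bFGF-JB6 monolayer replicate 2 left 7 members called in bFGF-JB6 colonies, leaving out RT101 colonies replicate 3 left 4 in RT101 colonies, and leaving out RT101 monolayer replicate 1 left 2 for the difference between the changes.

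**Figure D1:**
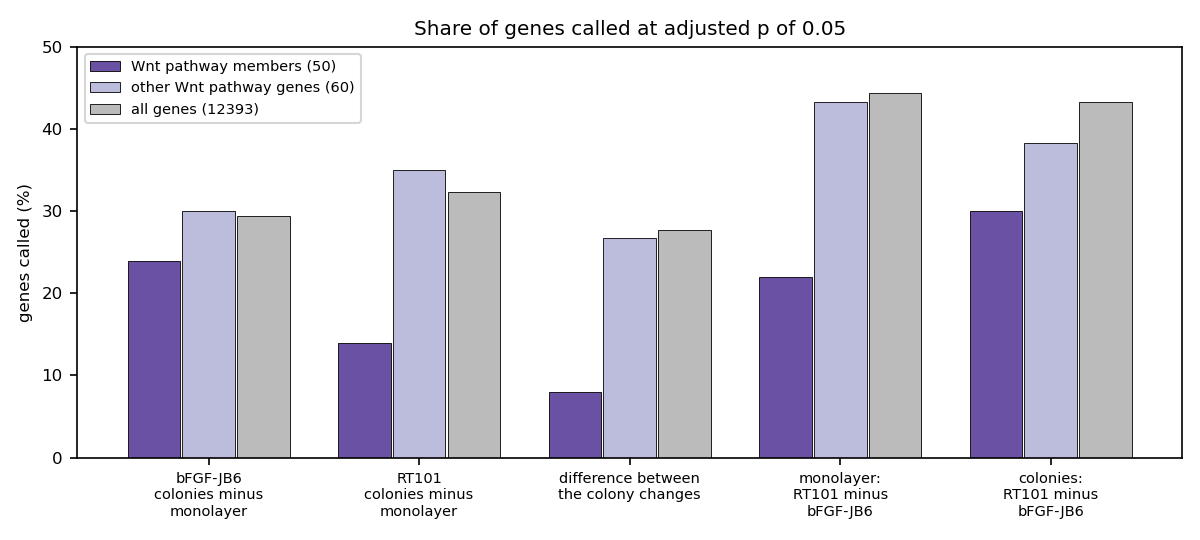
Share of genes called (vertical axis, percent, from 0) in each of 5 comparisons for the 50 Wnt pathway members, the 60 other Wnt pathway genes measured, and all 12393 genes. The member bar is below the bar of all genes in each comparison, at 24.0% against 29.4% in bFGF-JB6 colonies and 14.0% against 32.4% in RT101 colonies.

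**Figure D2:**
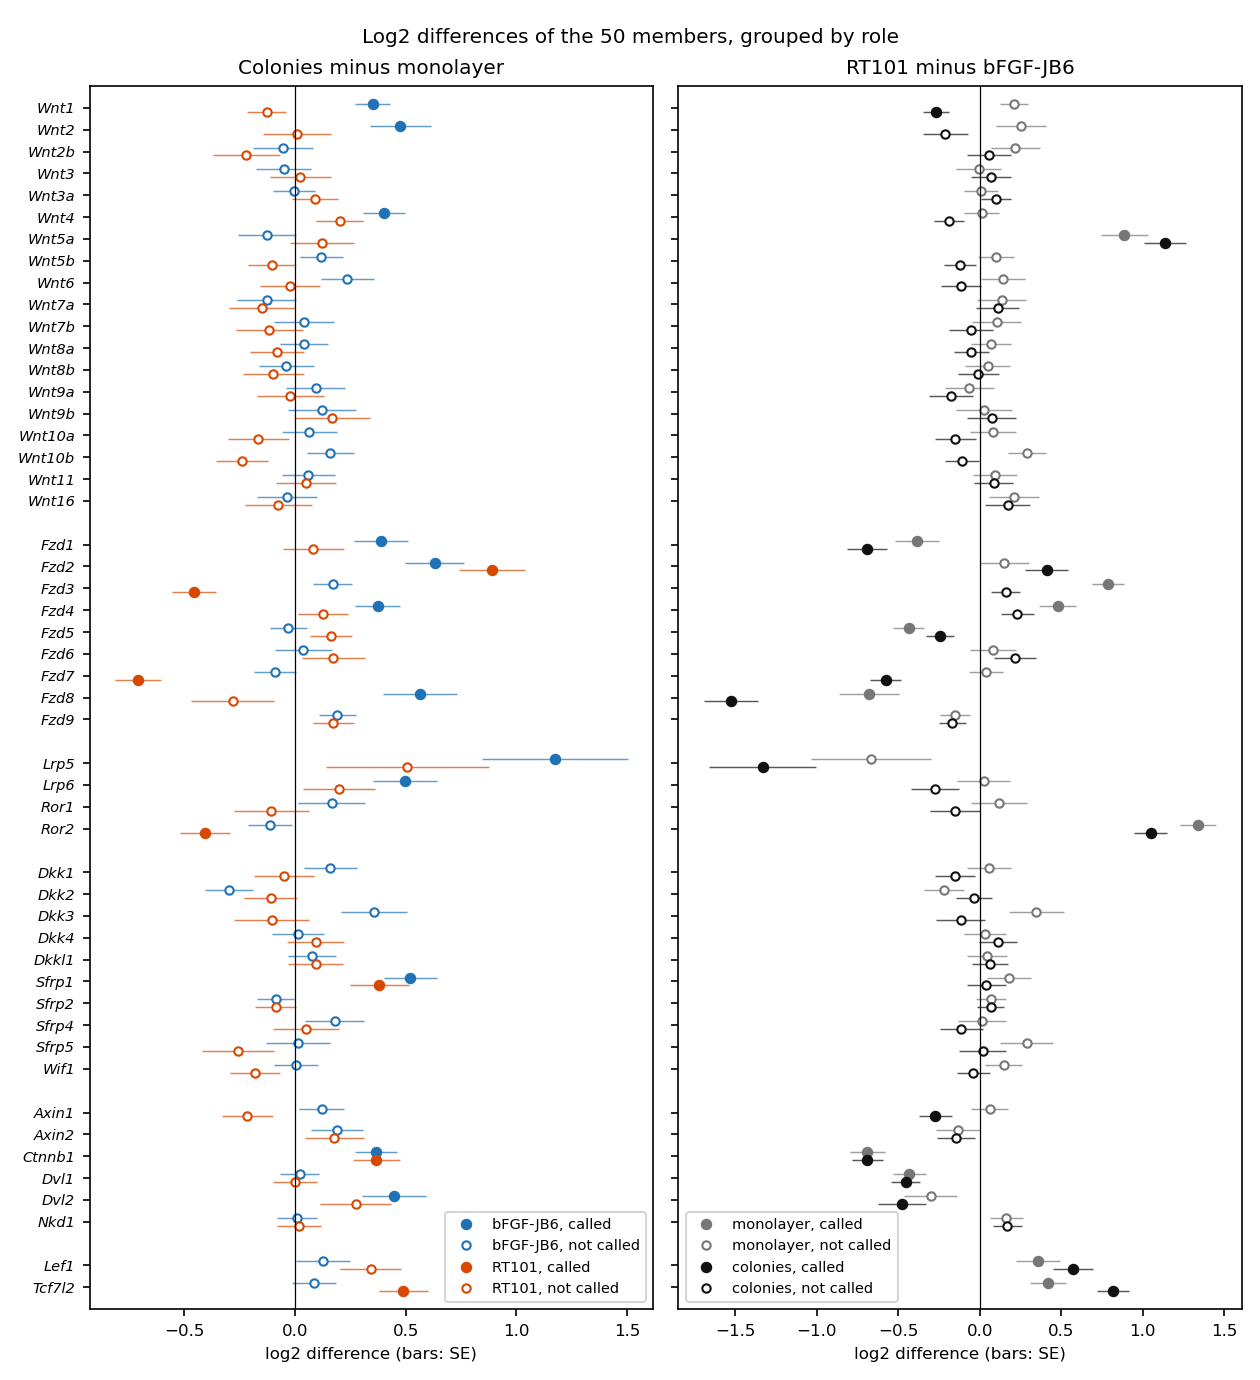
Log2 difference of each of the 50 members (1 gene per line, grouped by role), colonies minus monolayer on the left and RT101 minus bFGF-JB6 on the right, with bars of 1 moderated standard error and filled points for calls. Most ligands and antagonists lie near 0, while Wnt5a and Ror2 lie to the right and Lrp5 and Fzd8 to the left between colonies.

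Among the ligands, Wnt5a was the one called between the lines in both states. Its brightest probe set gave 6.62, 6.31 and 6.39 in bFGF-JB6 monolayers and 6.41, 6.03 and 6.50 in bFGF-JB6 colonies. In RT101 it gave 7.47 and 7.18 in monolayers and 7.37, 7.45 and 7.52 in colonies. Every RT101 array lay above every bFGF-JB6 array. Wnt5a was 1.85-fold higher in RT101 monolayers (log2 difference 0.89, SE 0.14, limma adjusted p = 0.000166) and 2.20-fold higher in RT101 colonies (1.14, SE 0.13, adjusted p = 6.41e-06). By this probe set neither colony change passed, at -0.13 (adjusted p = 0.526) in bFGF-JB6 and 0.12 (adjusted p = 0.607) in RT101.

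A second Wnt5a probe set, 1448818_at, read the bFGF-JB6 colonies differently. It gave 6.52, 6.09 and 6.11 in bFGF-JB6 monolayers, 5.28, 5.24 and 5.81 in bFGF-JB6 colonies, 6.45 and 6.48 in RT101 monolayers and 6.56, 6.77 and 6.67 in RT101 colonies. By it the 3 bFGF-JB6 colony arrays were the lowest of all, and the monolayers of both lines overlapped. Wnt5a fell by 0.80 in bFGF-JB6 colonies (SE 0.15, adjusted p = 0.00206 over the probe sets) and the colony changes of the lines differed by 0.997 (SE 0.23, adjusted p = 0.00713). Both probe sets gave a higher signal in RT101 colonies than in bFGF-JB6 colonies, the second by 1.22 (SE 0.15, adjusted p = 3.52e-05). The monolayer difference was called by the first and not by the second (0.22, adjusted p = 0.348).

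Of the other 18 ligands, 3 were called in some comparison. In bFGF-JB6 and RT101 colonies 15.8% and 0.0% of all 19 ligands were called, beside 29.4% and 32.4% of all genes. For the difference between the changes it was 5.26%, beside 27.7%. Between monolayers and between colonies it was 5.26% and 10.5%, beside 44.4% and 43.3%. Wnt4 rose by 0.40 in bFGF-JB6 colonies (SE 0.09, adjusted p = 0.00528), from 4.96 to 5.05 in monolayers to 5.29 to 5.53 in colonies. Wnt1, a classical activator of beta-catenin, rose there by 0.35 (SE 0.08, adjusted p = 0.00375) but its arrays all lay between 3.35 and 3.76, at the bottom of the scale. Wnt1 was also lower in RT101 colonies than in bFGF-JB6 colonies (-0.27, adjusted p = 0.012), with no overlap of the groups. The colony changes of the lines differed for Wnt1 (-0.48, adjusted p = 0.00716), a call that ended without RT101 monolayer replicate 1 (-0.40, adjusted p = 0.0503). Wnt2, between 2.80 and 3.71, rose by 0.47 in bFGF-JB6 colonies (adjusted p = 0.0186). That call ended without bFGF-JB6 monolayer replicate 1 (0.0523) or 2 (0.0617) and, at 0.28, with both arrays of raised 3' signal left out (0.089). No ligand was called in RT101 colonies by its brightest probe set, where the 19 ligands ran from -0.24 to 0.20 with a median of -0.08.

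**Figure D3:**
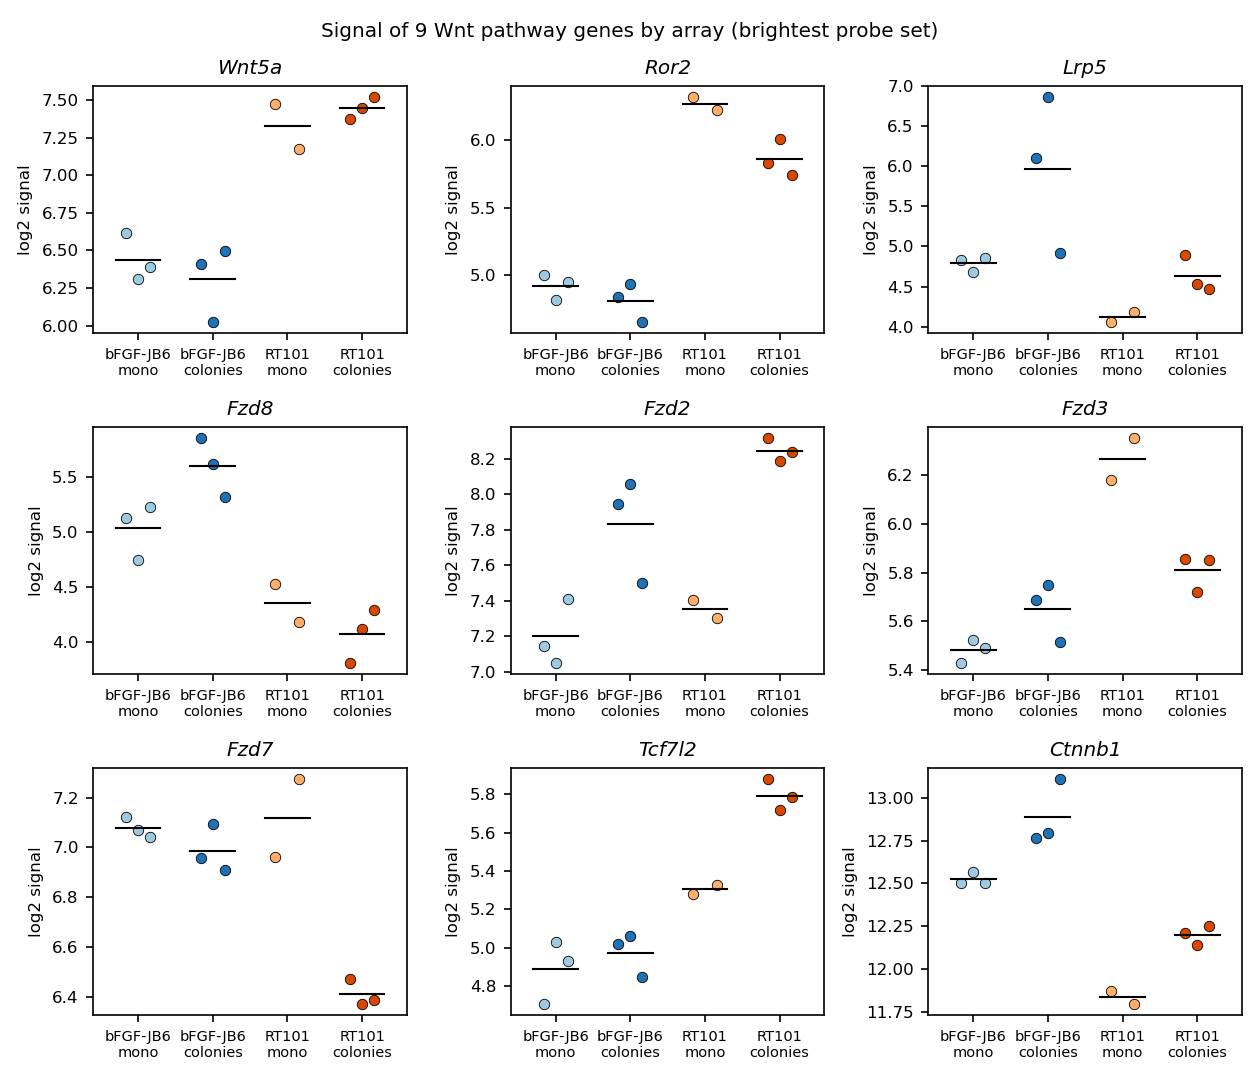
Log2 signal (vertical axis, a separate range for each gene) of the brightest probe set of 9 members on each of the 11 arrays, in the 4 groups, with lines at the group means. Wnt5a and Ror2 are higher on every RT101 array, Fzd8 and Ctnnb1 lower, and bFGF-JB6 colonies spread most for Lrp5 (4.92 to 6.86).

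Frizzled receptors are the primary Wnt receptors. Of 9 measured, 4 rose in bFGF-JB6 colonies (Fzd1, Fzd2, Fzd4 and Fzd8) and 0 fell. In RT101 colonies 1 rose (Fzd2) and 2 fell (Fzd3 and Fzd7). Between monolayers Fzd3 and Fzd4 were higher and Fzd1, Fzd5 and Fzd8 lower in RT101, and between colonies Fzd2 was higher and Fzd1, Fzd5, Fzd7 and Fzd8 lower. In the order given these were 44.4%, 33.3%, 55.6% and 55.6% of the 9 receptors, beside 29.4%, 32.4%, 44.4% and 43.3% of all genes.

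Fzd2 rose in colonies of both lines by each of its 3 probe sets, by 0.38 to 0.65 in bFGF-JB6 and by 0.87 to 1.13 in RT101. The smallest, 0.38 by 1418533_s_at, had overlapping groups and kept its call in 6 of 16 alternatives, with an adjusted p of up to 0.143 where 1 array was left out (bFGF-JB6 monolayer replicate 2). It was lost without any of 10 arrays, all but bFGF-JB6 colonies replicate 3. The brightest read 7.15, 7.05 and 7.41 in bFGF-JB6 monolayers, 7.94, 8.06 and 7.50 in bFGF-JB6 colonies, 7.40 and 7.31 in RT101 monolayers and 8.31, 8.19 and 8.23 in RT101 colonies. By the brightest set colonies and monolayers did not overlap in either line. The differences were 0.63 (SE 0.13, adjusted p = 0.00256) and 0.89 (SE 0.15, adjusted p = 0.00036). The excess of 0.26 in RT101 did not pass (adjusted p = 0.397), although 1 of the other probe sets, 1418533_s_at, gave an excess of 0.75 (adjusted p = 0.0104). Probe sets of this suffix can hold probes shared with other transcripts. Fzd2 was 0.41 higher in RT101 colonies than in bFGF-JB6 colonies (adjusted p = 0.0228), and with both arrays of raised 3' signal left out that was 0.24 (adjusted p = 0.0919). The call also ended without bFGF-JB6 colonies replicate 3 (0.0855), RT101 colonies replicate 1 (0.0749) or RT101 colonies replicate 3 (0.053).

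Fzd3 was high in RT101 monolayers and fell in RT101 colonies. Its brightest probe set read 5.43, 5.52 and 5.49 in bFGF-JB6 monolayers, 5.69, 5.75 and 5.51 in bFGF-JB6 colonies, 6.18 and 6.35 in RT101 monolayers and 5.86, 5.72 and 5.85 in RT101 colonies. The 2 RT101 monolayer arrays stood above all others. The monolayers differed by 0.79 (SE 0.10, adjusted p = 1.78e-05) and the fall in RT101 colonies was -0.46 (SE 0.10, adjusted p = 0.00266). The colony changes of the lines differed by -0.63 (SE 0.13, adjusted p = 0.003). All 4 probe sets of Fzd3 called these 3 differences in the same direction, between 0.46 and 1.13, between -1.15 and -0.35 and between -0.88 and -0.48. The smallest values were those of 1420087_at, whose fall kept its call in 12 of 16 alternatives and whose difference between the changes in 8 of 16, with adjusted p up to 0.283 and 0.171 (both without RT101 monolayer replicate 1). Its fall was lost also without RT101 colonies replicate 1 or 3, and its difference between the changes without these or without bFGF-JB6 monolayer replicate 2 or 3 or bFGF-JB6 colonies replicate 2. Its monolayer call ended without RT101 monolayer replicate 1 (0.0785). None called a difference between the colonies of the lines, with values from -0.03 to 0.25.

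Fzd7 fell in RT101 colonies only by its brightest probe set. That set read 7.12, 7.07 and 7.04 in bFGF-JB6 monolayers, 6.96, 7.09 and 6.91 in bFGF-JB6 colonies, 6.96 and 7.27 in RT101 monolayers and 6.47, 6.37 and 6.39 in RT101 colonies. The RT101 colony arrays lay below all others. The fall was -0.71 (SE 0.10, adjusted p = 0.000124), and it differed from the change in bFGF-JB6 by -0.62 (SE 0.14, adjusted p = 0.00441). The second probe set, with a mean signal of 5.04, gave -0.14 (adjusted p = 0.634) and -0.45 (adjusted p = 0.207).

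The sequence before the start of Fzd7 is shown because it had the largest fall in RT101 colonies among the members' brightest probe sets. It is the 250 bases before the annotated start, chr1:59481897-59482146 on the plus strand of GRCm38.p6, from RefSeq. Capitals mark ACAAAG, the TCF/LEF core CTTTGT on the other strand, whose first base lies 129 bases before the start. The core was searched as CTTTGA or CTTTGT on both strands in windows of 300 bases, from 250 before to 50 after each start.
Fzd7: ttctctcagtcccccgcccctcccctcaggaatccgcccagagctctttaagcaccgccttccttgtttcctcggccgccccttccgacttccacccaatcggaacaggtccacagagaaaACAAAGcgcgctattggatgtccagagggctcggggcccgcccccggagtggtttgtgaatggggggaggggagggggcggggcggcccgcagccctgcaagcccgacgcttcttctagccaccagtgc
This core occurred in 31.2% of 32851 windows and in 12 of 43 windows (27.9%) of the 35 members that had one, so a match is common and is a description of the letters only.

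Among the members' brightest probe sets, that of Fzd8 had the largest difference between colonies of the lines. It read 5.13, 4.74 and 5.22 in bFGF-JB6 monolayers, 5.85, 5.62 and 5.32 in bFGF-JB6 colonies, 4.52 and 4.18 in RT101 monolayers and 3.81, 4.12 and 4.28 in RT101 colonies. Every RT101 array lay below every bFGF-JB6 array. Fzd8 was 2.88-fold lower in RT101 colonies than in bFGF-JB6 colonies (-1.53, SE 0.17, adjusted p = 4.15e-06) and lower by 0.68 between monolayers on the log2 scale (-0.68, SE 0.19, adjusted p = 0.0081). It rose by 0.56 in bFGF-JB6 colonies (SE 0.17, adjusted p = 0.0196), was -0.28 in RT101 colonies (adjusted p = 0.297), and these differed by -0.85 (SE 0.25, adjusted p = 0.021). The rise in bFGF-JB6 colonies lost its call without bFGF-JB6 monolayer replicate 2 (adjusted p = 0.093), bFGF-JB6 colonies replicate 1 (0.0803) or replicate 2 (0.0565). The difference between the changes lost it without bFGF-JB6 monolayer replicate 2 (0.05), RT101 monolayer replicate 1 (0.121) or RT101 colonies replicate 1 (0.0534), and the monolayer difference without RT101 monolayer replicate 2 (0.106).

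Of the remaining receptors, Fzd1 rose by 0.39 in bFGF-JB6 colonies (adjusted p = 0.0271) and was 0.69 lower in RT101 colonies than in bFGF-JB6 colonies (-0.69, SE 0.12, adjusted p = 0.000328). Its rise lost its call without any of 4 bFGF-JB6 arrays, monolayer replicates 1 and 2 and colonies replicates 1 and 2, with adjusted p from 0.0615 to 0.102. The rise was also not called with cyclic loess (0.33, adjusted p = 0.0661). Between monolayers Fzd1 was lower in RT101 by 0.39 (-0.39), which lost its call without bFGF-JB6 monolayer replicate 2 (0.069) or 3 (0.107) or RT101 monolayer replicate 1 (0.0567) or 2 (0.198). Fzd4, known as the receptor for Norrin as well as for Wnts, rose by 0.37 in bFGF-JB6 colonies (adjusted p = 0.0127), a call that ended without bFGF-JB6 monolayer replicate 1 (0.0603) and, at 0.26, with both arrays of raised 3' signal left out (0.101). It was 0.48 higher in RT101 monolayers (adjusted p = 0.00319), not called without RT101 monolayer replicate 2 (0.0516). Between colonies Fzd4 differed by 0.23 (adjusted p = 0.0858), which passed with the replicate numbers as a block (adjusted p = 0.0377). Fzd5 was lower in RT101 by 0.43 between monolayers (-0.43, adjusted p = 0.00181) at signals of 2.85 to 3.35. The Fzd5 difference between colonies (-0.24, adjusted p = 0.033) was kept in 14 of 21 alternatives and lost without bFGF-JB6 colonies replicate 2 (0.0613) or 3 (0.073) or RT101 colonies replicate 1 (0.0874) or 2 (0.151). Fzd6 and Fzd9 were called in none of the 5 comparisons.

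The receptor tyrosine kinase gene Ror2, whose product is a receptor for Wnt5a, was high in RT101. Its probe set read 5.00, 4.82 and 4.95 in bFGF-JB6 monolayers, 4.84, 4.93 and 4.66 in bFGF-JB6 colonies, 6.31 and 6.22 in RT101 monolayers and 5.83, 6.0 and 5.74 in RT101 colonies. As with the brightest probe set of Wnt5a, no RT101 array overlapped a bFGF-JB6 array. Ror2 was 2.53-fold higher in RT101 monolayers (1.34, SE 0.11, adjusted p = 2.87e-07) and 2.07-fold higher in RT101 colonies (1.05, SE 0.10, adjusted p = 1.11e-06). Within RT101 it fell by 0.41 in colonies (SE 0.11, adjusted p = 0.0115). That fall lost its call without RT101 monolayer replicate 1 (adjusted p = 0.0981) or RT101 colonies replicate 3 (0.0501). In bFGF-JB6 colonies the difference was -0.11 (adjusted p = 0.447), and the 2 changes did not differ past the threshold (-0.29, adjusted p = 0.178). The related gene Ror1, between 3.75 and 4.42, was called in no comparison.

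The sequence before the start of Ror2 is shown because Ror2 had the largest difference between monolayers among the members. It spans chr13:53286125-53286374, minus strand, GRCm38.p6, from RefSeq, written 5' to 3' toward the start. Capitals mark CTTTGT, which begins 200 bases before the start, and the AP-1 site TGANTCA as TGAGTCA, which begins 90 bases before it; they do not overlap.
Ror2: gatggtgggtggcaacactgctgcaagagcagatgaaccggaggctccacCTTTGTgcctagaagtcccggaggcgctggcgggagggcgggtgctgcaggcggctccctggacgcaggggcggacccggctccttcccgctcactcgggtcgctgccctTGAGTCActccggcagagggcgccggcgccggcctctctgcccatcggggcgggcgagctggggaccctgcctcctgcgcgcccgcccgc
The AP-1 letters occurred in 7.81% of the 32851 windows and in 3 of 43 member windows (6.98%), those of Ror2, Dvl2 and Wnt5b.

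Lrp5 and Lrp6 encode the co-receptors of the beta-catenin branch. Lrp5 read 4.83, 4.68 and 4.85 in bFGF-JB6 monolayers and 6.10, 6.86 and 4.92 in bFGF-JB6 colonies, so the third colony array was close to the monolayers and the groups still did not overlap. In RT101 it read 4.06 and 4.19 in monolayers and 4.89, 4.53 and 4.47 in colonies. The rise in bFGF-JB6 colonies was 2.25-fold (1.17, SE 0.33, adjusted p = 0.0152). It was 0.72 without bFGF-JB6 colonies replicate 2 (adjusted p = 0.0566) and 1.71 without replicate 3, an array of raised 3' signal. With a trended robust variance the rise of 1.17 was not called (adjusted p = 0.0518). In RT101 colonies the difference was 0.51 (adjusted p = 0.353), with groups that did not overlap, and it was called without bFGF-JB6 colonies replicate 3 (0.0496) and with only the groups compared (0.0161). The difference between the changes of the lines, -0.67 (adjusted p = 0.373), was called without that replicate (-1.19, adjusted p = 0.00426), with array weights (-1.05, adjusted p = 0.0395) and with both arrays of raised 3' signal left out (-1.21, adjusted p = 0.00943). Lrp5 was 2.52-fold lower in RT101 colonies than in bFGF-JB6 colonies (-1.33, SE 0.33, adjusted p = 0.00438), at -0.88 without bFGF-JB6 colonies replicate 2 and -1.85 without replicate 3, called in each. The monolayer difference was -0.67 (adjusted p = 0.171), again with no overlap, and it was called with only the groups compared (0.000334), without bFGF-JB6 colonies replicate 3 (0.00954) and with both arrays of raised 3' signal left out (0.0299). Lrp6 rose by 0.50 in bFGF-JB6 colonies (SE 0.15, adjusted p = 0.0196) with overlapping groups, and its second probe set gave -0.02 with no call. The Lrp6 rise lost its call without bFGF-JB6 monolayer replicate 2 (0.069) or 3 (0.0917) or bFGF-JB6 colonies replicate 3 (0.0709).

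Secreted antagonists had few calls. In bFGF-JB6 and RT101 colonies 10.0% of them were called, beside 29.4% and 32.4% of all genes. For the difference between the changes, between monolayers and between colonies it was 0.0%, beside 27.7%, 44.4% and 43.3%. Of 10 measured, 9 (Dkk1, Dkk2, Dkk3, Dkk4, Dkkl1, Sfrp2, Sfrp4, Sfrp5 and Wif1) were called in none of the 5 comparisons, and 5 of the 10 had no group mean above 3.91. The tenth, Sfrp1, rose by 0.52 in bFGF-JB6 colonies (SE 0.12, adjusted p = 0.00456) and by 0.38 in RT101 colonies (SE 0.13, adjusted p = 0.0428). Its brightest probe set gave 5.53, 5.73 and 5.55 in bFGF-JB6 monolayers, 5.94, 5.99 and 6.45 in bFGF-JB6 colonies, 5.79 and 5.78 in RT101 monolayers and 6.17, 6.16 and 6.17 in RT101 colonies. That set has the suffix x, which marks probes that can bind other transcripts. The other 3 Sfrp1 sets had mean signals of 3.96, 3.56 and 2.32 and differences of -0.06 to 0.08 in the colony comparisons, with no call. The RT101 call was kept in 10 of 21 alternatives, with an adjusted p of 0.0556 over all probe sets, 0.147 to 0.149 when either RT101 monolayer array was left out and 0.0877 to 0.0886 when any RT101 colony array was.

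Inside the cell, Ctnnb1, which encodes beta-catenin, was higher in colonies than in monolayers and lower in RT101 than in bFGF-JB6. Its brightest probe set read 12.50, 12.56 and 12.50 in bFGF-JB6 monolayers, 12.76, 12.80 and 13.11 in bFGF-JB6 colonies, 11.87 and 11.80 in RT101 monolayers and 12.21, 12.14 and 12.25 in RT101 colonies. The 4 groups did not overlap and stood in the order RT101 monolayer, RT101 colonies, bFGF-JB6 monolayer, bFGF-JB6 colonies. The rise was 0.37 in bFGF-JB6 colonies (SE 0.10, adjusted p = 0.0103) and 0.37 in RT101 colonies (SE 0.11, adjusted p = 0.0169). RT101 was lower by 0.69 in both states (-0.69, adjusted p = 0.000107 in monolayers and 4.07e-05 in colonies). The rise in RT101 lost its call without RT101 monolayer replicate 1 (adjusted p = 0.0547) or 2 (0.111) or RT101 colonies replicate 3 (0.0568), and after median centring (0.0864).

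The 2 other Ctnnb1 probe sets, 1450008_a_at and 1430533_a_at, gave the same directions with larger differences. They rose by 0.66 and 0.83 in bFGF-JB6 colonies and by 0.65 and 0.80 in RT101 colonies, and RT101 was lower by -0.99 and -1.24 in monolayers and by -1.01 and -1.27 in colonies. These 8 calls were kept in 16 of 16 alternatives. The set 1450008_a_at read 10.73 to 11.01 in bFGF-JB6 monolayers, 11.42 to 11.64 in bFGF-JB6 colonies, 9.88 and 9.91 in RT101 monolayers and 10.53 to 10.55 in RT101 colonies. The colony changes of the lines differed by 0.00, -0.02 and -0.03 in the 3 sets, with SE of 0.14 to 0.23.

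Dvl1 and Dvl2 encode Dishevelled proteins, which carry the signal from Frizzled. Dvl1 was lower in RT101 by its brightest probe set, by -0.43 in monolayers (SE 0.10, adjusted p = 0.00267) and -0.45 in colonies (SE 0.09, adjusted p = 0.000804). Its second set gave -0.48 in monolayers but -0.07 in colonies (adjusted p = 0.583). The second set also fell by 0.37 in bFGF-JB6 colonies (adjusted p = 0.00479), where the first was at 0.02, and its colony changes differed between the lines by 0.41 (adjusted p = 0.0279), kept in 9 of 16 alternatives and lost without bFGF-JB6 monolayer replicate 1 (0.0589), RT101 monolayer replicate 1 (0.123) or RT101 colonies replicate 1 (0.0662) or 2 (0.0624). Dvl2 rose by 0.45 in bFGF-JB6 colonies (adjusted p = 0.0309) and was lower in RT101 colonies (-0.48, adjusted p = 0.0153), with no call by its second set. The Dvl2 rise lost its call without any 1 of 5 bFGF-JB6 arrays (adjusted p from 0.0657 to 0.14), all but colonies replicate 3. The Dvl2 difference between colonies lost it without bFGF-JB6 colonies replicate 2 (0.0804) or RT101 colonies replicate 2 (0.062) or 3 (0.0568), and with the mean of its probe sets (0.149). Axin1 was lower in RT101 colonies than in bFGF-JB6 colonies (-0.27, adjusted p = 0.0425), a call kept in 12 of 22 alternatives.

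Axin2 and Nkd1 encode feedback inhibitors that are themselves induced by beta-catenin in many cells. Neither was called in any comparison. Axin2 read 3.78 to 4.54 over the 11 arrays, with differences of 0.19 (SE 0.12, adjusted p = 0.275) in bFGF-JB6 colonies and 0.18 (SE 0.13, adjusted p = 0.373) in RT101 colonies. Its second set lay between 2.88 and 3.21 with no call.

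Both TCF/LEF factors among the members, which bring beta-catenin to DNA, were higher in RT101. Tcf7l1, of the same family and counted below among nuclear partners, was not called between the lines. It differed by 0.02 in monolayers (adjusted p = 0.915) and by 0.19 in colonies (adjusted p = 0.188). Tcf7l1 did rise in RT101 colonies against monolayer, by 0.39 (adjusted p = 0.0231), and was at 0.22 in bFGF-JB6 colonies (adjusted p = 0.1525). Its colony changes did not differ past the threshold (0.17, adjusted p = 0.505). Lef1 lay between 2.84 and 3.81, at the bottom of the scale. It was 0.57 higher in RT101 colonies than in bFGF-JB6 colonies (SE 0.12, adjusted p = 0.00149) and 0.36 higher in RT101 monolayers (SE 0.14, adjusted p = 0.0469), the latter kept in 11 of 21 alternatives. Among the arrays whose omission ended the Lef1 monolayer call were RT101 monolayer replicate 1 (0.324) and bFGF-JB6 monolayer replicate 3 (0.175).

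Tcf7l2 rose in RT101 colonies by all 4 of its probe sets and in bFGF-JB6 colonies by none. The brightest read 4.71, 5.03 and 4.93 in bFGF-JB6 monolayers, 5.02, 5.06 and 4.84 in bFGF-JB6 colonies, 5.28 and 5.33 in RT101 monolayers and 5.88, 5.72 and 5.79 in RT101 colonies. It gave a rise of 0.49 in RT101 colonies (SE 0.11, adjusted p = 0.00334), and a difference between the changes of the lines of 0.40 that did not pass (adjusted p = 0.0598). The set 1429428_at read 4.43, 4.40 and 4.47 in bFGF-JB6 monolayers, 4.49, 4.54 and 4.40 in bFGF-JB6 colonies, 5.02 and 4.96 in RT101 monolayers and 6.19, 6.27 and 6.16 in RT101 colonies. By this set the bFGF-JB6 groups overlapped, RT101 monolayers lay above them and RT101 colonies above all others. The rise in RT101 colonies was 1.21 (SE 0.09, adjusted p = 6.29e-07) and the difference between the changes was 1.17 (SE 0.11, adjusted p = 1.33e-05).

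The remaining sets of Tcf7l2, 1425229_a_at and 1429427_s_at, rose in RT101 colonies by 0.95 (adjusted p = 1.58e-05) and 1.44 (adjusted p = 0.00024), and differed between the changes by 0.98 and 1.90. Between colonies of the lines the 4 sets were higher in RT101 by 0.82, 1.73, 1.07 and 2.51, and between monolayers 3 of the 4 were called, at 0.42, 0.56 and 0.62, while 1425229_a_at was at 0.09. The 0.62 of 1429427_s_at kept its call in 10 of 16 alternatives and ran from 0.43 to 0.75 without either of bFGF-JB6 monolayer replicates 2 and 3 or either RT101 monolayer array, where it was not called (adjusted p from 0.0581 to 0.218). The difference between the changes was called by 3 sets in 16 of 16 alternatives, but not by the brightest set, so Tcf7l2 is not among the 4 members counted above. With every probe set tested on its own, 8 members had a set that differed between the colony changes.

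**Figure D4:**
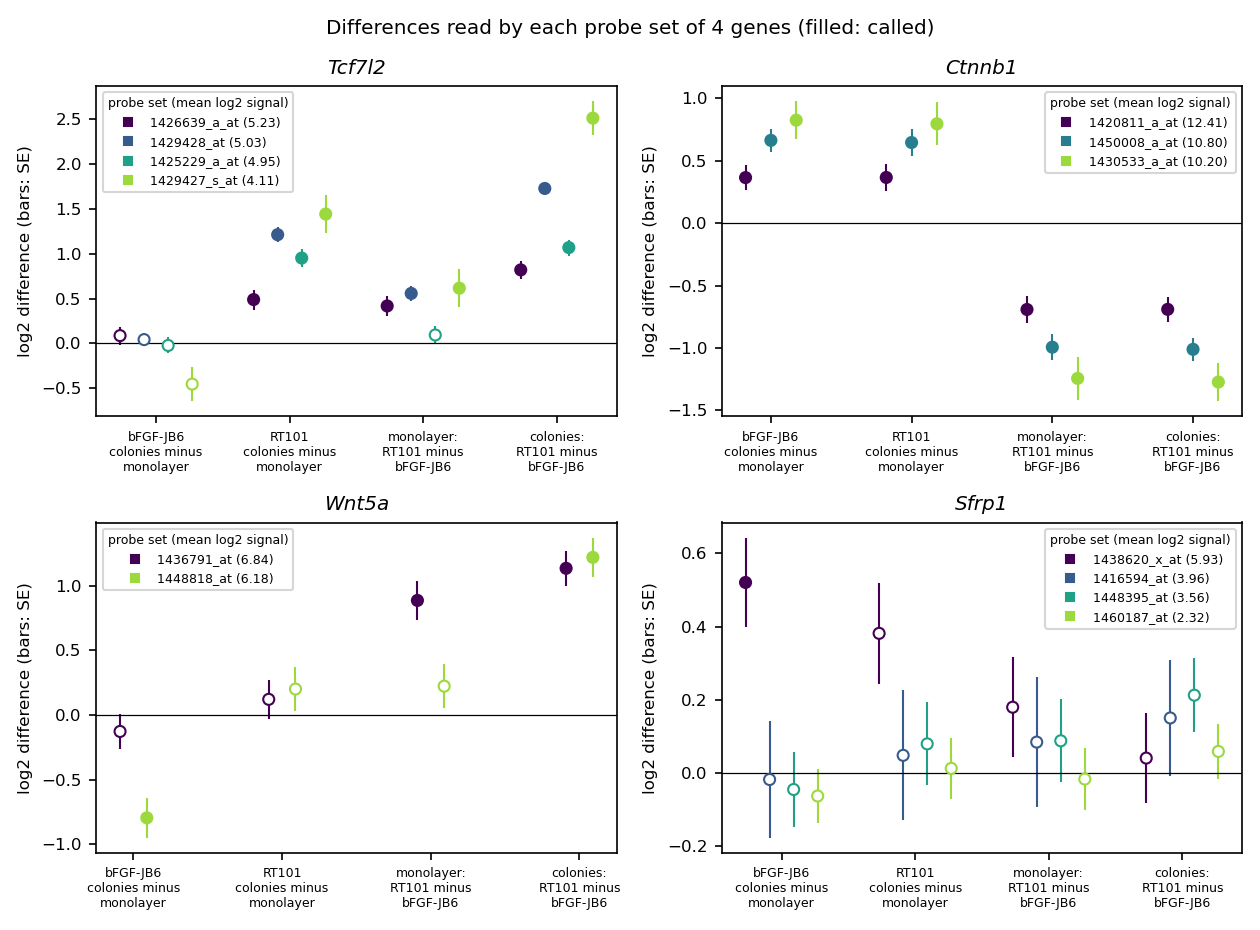
Log2 differences in 4 comparisons read by each probe set of Tcf7l2, Ctnnb1, Wnt5a and Sfrp1 (bars, 1 moderated standard error; filled points, called over all probe sets; the key gives each set's mean log2 signal). Sets of Tcf7l2 and of Ctnnb1 share directions where called, while the 2 sets of Wnt5a part in bFGF-JB6 colonies and of the 4 sets of Sfrp1 the brightest alone has a call, in bFGF-JB6 colonies.

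Tcf7l2 has more than 1 annotated start, and the 250 bases before each of 2 are shown because its probe sets differed in size. They are from RefSeq, GRCm38.p6, plus strand, chr19:55741560-55741809 and chr19:55895071-55895320. Capitals mark CTTTGT, which begins 14 bases before the second start; the first window held no core. The arrays do not say from which start a transcript came.
Tcf7l2 first start: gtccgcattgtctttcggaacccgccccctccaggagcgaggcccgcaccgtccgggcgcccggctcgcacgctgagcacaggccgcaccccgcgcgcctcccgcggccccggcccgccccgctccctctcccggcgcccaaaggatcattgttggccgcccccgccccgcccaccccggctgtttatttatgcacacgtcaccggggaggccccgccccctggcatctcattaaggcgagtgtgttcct
Tcf7l2 second start: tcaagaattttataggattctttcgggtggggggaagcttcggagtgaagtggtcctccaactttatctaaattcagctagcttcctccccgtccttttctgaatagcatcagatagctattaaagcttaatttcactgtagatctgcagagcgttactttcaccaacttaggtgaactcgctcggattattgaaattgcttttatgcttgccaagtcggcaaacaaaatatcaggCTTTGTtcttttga

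The other genes of the pathway were taken from lists of 60 measured genes, of which 30.0% were called in bFGF-JB6 colonies and 35.0% in RT101 colonies, close to the 29.4% and 32.4% of all genes. The single lists differed from this. Of 11 genes of Wnt secretion and the extracellular space, 45.5% were called in bFGF-JB6 colonies and 9.09% in RT101 colonies. In bFGF-JB6 colonies 3 rose and 2 fell. Wls, which carries Wnt proteins to the cell surface, rose there by 1.14 (adjusted p = 4.25e-07), and in RT101 colonies, as the 1 gene of the list called, by 0.84 (adjusted p = 1.5e-05). Rspo2, a secreted enhancer of Wnt signalling, rose by 1.16 in bFGF-JB6 colonies (adjusted p = 8.27e-05), Gpc4, a glypican, fell by 0.88 and Apcdd1, a membrane-bound inhibitor, fell by 0.64. Of 5 other receptor and turnover genes 1 rose in bFGF-JB6 colonies (20.0%) and 2 in RT101 colonies (40.0%). Ptk7, a pseudokinase receptor of the planar polarity branch, rose in both, by 0.47 and 0.69. Lgr6, an R-spondin receptor, rose by 0.67 in RT101 colonies (adjusted p = 0.0165), which did not hold without RT101 monolayer replicate 2 (0.324) or RT101 colonies replicate 2 (0.0576).

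Of 18 genes of the destruction complex and its transducers, 2 rose and 2 fell in bFGF-JB6 colonies, and 1 rose and 7 fell in RT101 colonies. These were 22.2% and 44.4% of the list. All genes gave 29.4% (14.1% higher, 15.3% lower) and 32.4% (17.0% higher, 15.4% lower). Gsk3b, the kinase that marks beta-catenin for destruction, fell by 0.40 in bFGF-JB6 colonies (adjusted p = 0.00933) and by 0.71 in RT101 colonies (adjusted p = 0.000298). The casein kinase gene Csnk1g1 fell by 0.95 and 0.63. Csnk1e fell by 0.77 and the SUMO protease gene Senp2 by 0.61 in RT101 colonies. Dact1 and Btrc, the latter a ubiquitin ligase subunit that recognises beta-catenin, rose by 0.46 each in bFGF-JB6 colonies. The Btrc rise was 0.22 with no call for the mean of its probe sets (adjusted p = 0.195). The Dact1 rise did not hold with both arrays of raised 3' signal left out (adjusted p = 0.0885), nor the Gsk3b fall in bFGF-JB6 without bFGF-JB6 monolayer replicate 3 (0.0528), nor the Senp2 fall without RT101 monolayer replicate 2 (0.0649).

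Of 13 nuclear partners 4 rose and 3 fell in bFGF-JB6 colonies, and 5 rose and 2 fell in RT101 colonies. That was 53.8% called in each, beside 29.4% and 32.4% of all genes. Among genes of the Groucho (Tle) family, Tle2 rose by 0.70 in bFGF-JB6 colonies (adjusted p = 0.00074) and by 1.70 in RT101 colonies (adjusted p = 6.15e-07). Tle5 rose by 1.29 in RT101 colonies. Tle1 fell by 1.03 in bFGF-JB6 colonies and by 0.40 in RT101 colonies (adjusted p = 0.028). Tle3 rose by 0.38 in bFGF-JB6 colonies (adjusted p = 0.00394) and fell by 0.64 in RT101 colonies (adjusted p = 0.000131). Tle4 was called in neither. Hbp1, a repressor of TCF activity, rose by 0.64 and 1.20. Bcl9, a co-activator of beta-catenin, rose by 0.60 in bFGF-JB6 colonies, and Cby1, which binds beta-catenin and inhibits it, rose by 0.80 in RT101 colonies. Of 13 genes of the planar polarity and calcium branch, 1 rose in bFGF-JB6 colonies and 2 rose and 1 fell in RT101 colonies. These were 7.69% and 23.1% of that list, beside the same shares of all genes. Mapk8, the JNK1 kinase gene, rose by 0.46 in bFGF-JB6 colonies and fell by 0.74 in RT101 colonies, Vangl1 rose by 0.48 in RT101 colonies, and Rhoa was at 0.28 there (adjusted p = 0.0405, lost without any of the 5 RT101 arrays).

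Of 24 measured genes reported as beta-catenin targets, 4 rose and 5 fell in bFGF-JB6 colonies (37.5%) and 3 rose and 7 fell in RT101 colonies (41.7%), beside 29.4% (14.1% higher, 15.3% lower) and 32.4% (17.0% higher, 15.4% lower) of all genes. Many of them respond to other pathways too. Myc fell by 1.06 in bFGF-JB6 colonies (adjusted p = 2.67e-05) and by 2.09 in RT101 colonies (adjusted p = 1.08e-07). Ccnd1, a cyclin gene, fell by 1.68 and Birc5, a mitotic survival gene, by 1.28 in bFGF-JB6 colonies, where the matricellular gene Ccn4 rose by 1.28. In RT101 colonies the urokinase receptor gene Plaur fell by 1.90, and Id2 and Tcf4 rose by 1.84 and 1.80. Tcf4 encodes a basic helix-loop-helix factor and is a different gene from Tcf7l2, whose protein is often called TCF4.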

How the data were processed

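Total RNA of 11 samples was read on biotin-based Affymetrix arrays, 1 sample per array. The authors deposited log2 signals per probe set, and RMA is the tool that the submitters' processing notes name; the version, scanner settings and genome build are not given in the sources used here. RMA corrects background and brings arrays to a common distribution, shrinks folds at weak signals and comes without detection calls. The number of arrays limits the precision.

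Values were used as deposited. Of 22690 probe sets, 20380 carried 1 gene symbol in the platform annotation, 691 several, 1555 none and 64 were controls; each of 12393 genes took its brightest single-symbol probe set. limma 3.58.1 in R 4.3.3 was fitted to all 11 arrays with group as the only term and with eBayes moderation (degrees of freedom 7 residual, 6.12 prior), with p-values adjusted by Benjamini-Hochberg over all genes. A second fit tested all 20380 probe sets. SE is the moderated standard error. The procedure was tested on simulated data. Figures used matplotlib 3.10.9 in Python 3.11.15.

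Members called with a log2 difference of 1 or more were given by array under the rule for naming; others were added where probe sets bore on a call, namely Fzd2, Fzd3, Fzd7, Sfrp1, Ctnnb1 and Tcf7l2, chosen after their values were seen. Up to 4 called genes of each other pathway list and colony comparison were named. Tcf7l1 and Tle3 were added to these for their gene families. Members and lists were chosen with earlier results of these data known. Promoter sequences are from RefSeq (GRCm38.p6), matched by gene number for 35 of 50 members.

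Replicate numbers in the titles were taken to pair the samples between the colonies of the 2 lines, where deviations from group means correlated at 0.32, 0.111 and 0.225. In the other comparisons not every pair of title numbers exceeded 0.1. For RT101 monolayers the description letters differ from the title numbers, since replicates 1 and 2 carry the letters B and C. By letter, the monolayer pairs of the lines correlated at 0.174 and 0.148. Alternatives were cyclic loess, median centring, array weights, a trended robust variance, a 2-fold minimum, a filter at the median level, probe sets averaged per gene or tested singly, replicate blocks, fits of the compared groups alone, omission of each array, and omission of both arrays of raised 3' signal. Alternatives for single probe sets were added after seeing the data.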

Additional observations from a re-analysis of the deposited data

Results flagged for a closer look

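Between the lines, the change from monolayer to colonies differed for the following genes by the interaction term of the fit (adjusted p of 0.05, RT101 minus bFGF-JB6, log2 scale). Among members by their brightest probe set the difference was -0.63 for Fzd3, -0.62 for Fzd7, -0.85 for Fzd8 and -0.48 for Wnt1. Single probe sets gave 0.41 for Dvl1 (1437301_a_at, kept in 9 of 16 alternatives) and 0.75 for Fzd2 (1418533_s_at). The other Fzd3 sets gave -0.48, -0.64 and -0.88, and 3 Tcf7l2 sets gave 0.98, 1.17 and 1.90. The second Wnt5a set gave 0.997.

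Among named genes of the other pathway lists, the difference was -0.92 for Rspo2, 0.97 for Gpc4, 0.74 for Apcdd1 and 0.84 for Lgr6. It was -0.82 for Csnk1e and -0.84 for Senp2. Nuclear partners gave 0.63 for Tle1, 0.99 for Tle2, -1.02 for Tle3, 0.56 for Hbp1 and 1.22 for Cby1. Mapk8 gave -1.20 and Vangl1 0.67. Of genes reported as beta-catenin targets, Ccnd1 gave 1.34, Birc5 1.40, Id2 1.33 and Tcf4 1.74, while Ccn4 gave -2.18, Myc -1.03 and Plaur -1.71. In all, 27.7% of genes differed in this way.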

How the results depend on the processing

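The counts of called members were compared across alternatives. Restricted to genes at or above the median level they were 4 in bFGF-JB6 colonies, 3 in RT101 colonies, 1 for the difference between the changes, 3 between monolayers and 7 between colonies, since fewer members were tested. With a 2-fold minimum they were 1, 0, 0, 1 and 4. Against 4 members in the reported fit, the difference between the changes was called for 7 with the mean of probe sets and 8 with all probe sets. It was called for 7 without the 2 arrays of raised 3' signal. With all probe sets a gene counted by its set of lowest p, with no correction for that choice. This added Tcf7l2, Wnt5a, Fzd2 and Dvl1 through sets other than the brightest. Why the other counts were higher was not tested. Leaving out 1 array gave 7 to 12 members in bFGF-JB6 colonies (7 without bFGF-JB6 monolayer replicate 2), 4 to 9 in RT101 colonies (4 without RT101 colonies replicate 3), 2 to 6 for the difference (2 without RT101 monolayer replicate 1), 9 to 12 between monolayers and 12 to 15 between colonies. Where an RT101 monolayer array was left out, the remaining 1 was assumed to vary like the other groups. With the title numbers as a replicate block the counts were 12, 7, 4, 10 and 16, and the block ended the calls of Sfrp1 in RT101 colonies (adjusted p = 0.0896) and Lef1 between monolayers (0.0711), gained Lef1 in RT101 colonies (0.0118) and Fzd4 between colonies, and changed no other call of a member gene. Over all probe sets it ended the calls of the brightest sets of Ctnnb1 in RT101 colonies and of Fzd2 between colonies, 2 calls of the Fzd3 probe set 1420087_at (adjusted p = 0.0725 and 0.0685) and 1 of the Tcf7l2 probe set 1429427_s_at (0.0705). With the description letters as the block, Lef1 (adjusted p = 0.0399) and Axin1 (0.0423) were gained in RT101 colonies. Axin1 was also gained for the difference between the changes (0.0347), and Fzd4 between colonies (0.0462). Signs turned in 3 cases, none called: Wnt5a in bFGF-JB6 colonies ran from -0.22 to 0.0158 over arrays left out, Wnt5a in RT101 colonies from -0.0277 to 0.27, and Ror2 in bFGF-JB6 colonies was 0.0009 without the 2 arrays of raised 3' signal. Members below the median level have no value under that filter. The number of arrays, 2 or 3 a group, and the low signals of most members limit which differences could be called.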
